A study of Drosophila melanogaster with 5 samples.

Results

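The CD36-family receptors are class B scavenger receptors, and 6 fly genes of this family, crq, pes, emp, ninaD, santa-maria and Snmp1, were followed in the circulating blood cells (hemocytes) of Drosophila melanogaster larvae. Each of the 6 genes had 1 probe set that the platform annotation assigned to that gene alone, so 6 of 18769 measured probe sets and 6 of 11982 named genes are described. The family was chosen by levels measured on these same arrays, on which ninaD and santa-maria had shown large differences, so their differences are a description and carry no test. Hemocytes came from larvae of the third instar, with 200 to 300 larvae pooled for each of 5 Affymetrix arrays. The control was the W1118 strain. The spen stock was spen(GE10359), a GenExel line labelled loss of function, with a P-element in the UTR of spen. The E(spl) stock was E(spl)rvl, BL199, and the Su(H) stock was Su(H)l(417), BL417, both labelled loss of function. The EGFR stock was BL1564, labelled gain of function, and no allele is named for it. These last 3 stocks came from the Bloomington stock centre. The labels do not say whether the larvae of any stock were homozygous or carried a balancer chromosome, nor how the larvae were raised. There was 1 array per group, so no difference could be set against a spread between animals, and every difference below is a difference between particular arrays.

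Class B scavenger receptors are membrane proteins with a large glycosylated extracellular loop anchored near both ends, and they bind or move lipids, carotenoids, bacteria and dying cells. In the fly, crq (croquemort) is a macrophage receptor for the uptake of apoptotic cells, and pes (peste) was found through its role in the uptake of mycobacteria by cultured blood cell lines. ninaD takes up dietary carotenoids in the midgut, and santa-maria takes them up in neurons and glia of the head, where the oxygenase ninaB turns them into visual pigment precursor. emp is an epithelial membrane protein of the family, and Snmp1 acts with odorant receptors in pheromone-sensing neurons.

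Of the 6 receptors, ninaD and santa-maria varied far more between stocks than the others. ninaD was off on the control, spen and EGFR arrays, low on the Su(H) array and very high on the E(spl) array, while santa-maria was high on the control and spen arrays and low on the E(spl), EGFR and Su(H) arrays. The macrophage receptors crq and pes were present on all 5 arrays and differed by less than 2-fold between every mutant stock and the control. emp was present at a low level and about 2-fold lower in E(spl), EGFR and Su(H), and Snmp1 was off everywhere. A gene was taken as off on an array when its log2 level did not exceed the highest of 27 control probe sets for Bacillus genes, which no fly RNA should bind, and as on when it lay at least 1 log2 unit above that control. The highest Bacillus control stood at 4.33 on the control array, 4.78 on spen, 4.33 on E(spl), 4.28 on Su(H) and 4.40 on EGFR.

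**Figure D1:**
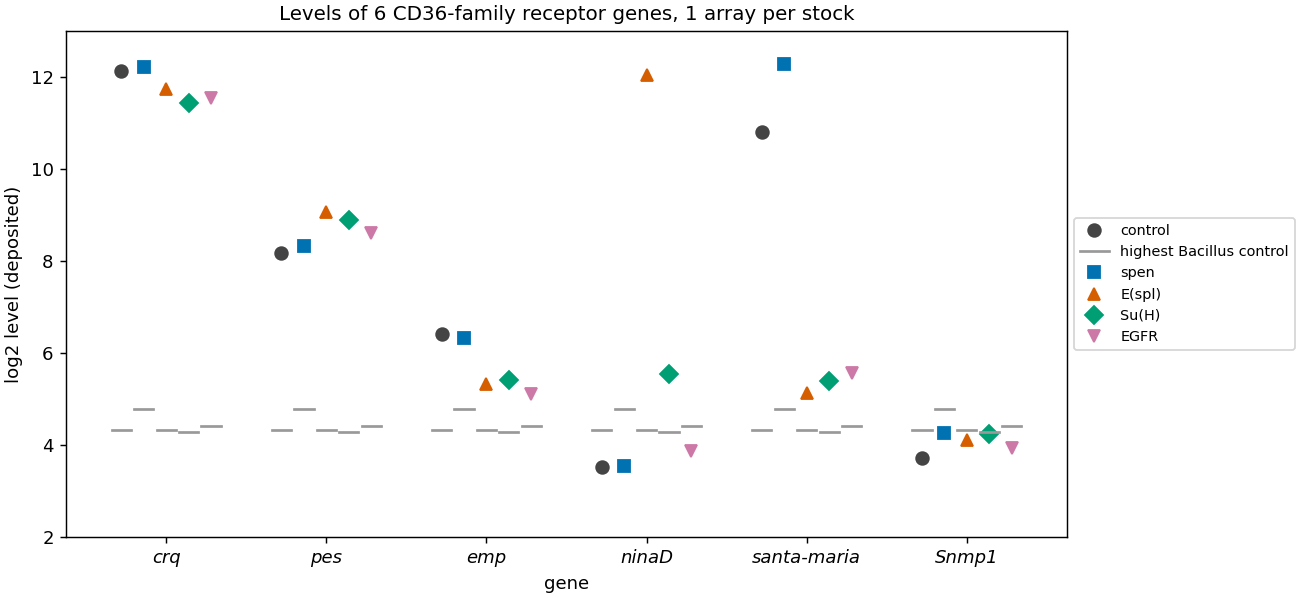
Log2 level (vertical axis, as deposited) of each of the 6 receptor genes (horizontal axis) on the 5 arrays, 1 symbol per array, with a grey line for the highest Bacillus control of that array and no error bars because each stock had 1 array. ninaD reached 12.06 on the E(spl) array alone, santa-maria exceeded 10.8 only on the control and spen arrays, and all Snmp1 symbols lie below their grey lines.

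The receptors with known roles in phagocytosis varied by less than 2-fold over the 5 arrays. crq stood at 12.13 on the control array, 12.23 on spen, 11.75 on E(spl), 11.43 on Su(H) and 11.55 on EGFR. It was on in all 5 stocks, and its whole range was 0.80 log2 units, or 1.74-fold. Of all measured probe sets, 30% had a range at least that large. Its differences from the control were 0.10 in spen, −0.38 in E(spl), −0.58 in EGFR and −0.70 in Su(H). pes stood at 8.17 on the control array, 8.32 on spen, 9.08 on E(spl), 8.88 on Su(H) and 8.62 on EGFR. Its differences from the control were 0.16 in spen, 0.91 in E(spl), 0.45 in EGFR and 0.72 in Su(H), all above 0 and all under 2-fold. The range of pes was 0.91 log2 units, and 25.9% of measured probe sets had a range at least that large. In hemocytes of bulk larvae, fewer cells of a type and less RNA per cell cannot be told apart, for these receptors and for those that follow.

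Both macrophage receptors separated the same arrays in opposite directions. For crq the E(spl), EGFR and Su(H) arrays all lay below the control and spen arrays, with a gap of 0.38 log2 units between the nearest arrays, and for pes they all lay above them, with a gap of 0.30. Among 10568 probe sets whose highest array reached the median of all levels, 14.7% had these 3 stocks all below control and spen, and 18.9% had them all above. crq, emp and santa-maria were of the first kind and pes was of the second. Where a gene had several probe sets, their differences from the control scattered with a pooled SD of 0.51 log2 units in spen, 0.58 in E(spl), 0.58 in EGFR and 0.62 in Su(H). The gaps of crq and pes were smaller than these SDs, but the pes gap, between EGFR and spen, is not a difference from the control. Of the differences from the control, pes in E(spl) (0.91) and Su(H) (0.72) and crq in Su(H) (−0.70) exceeded the SD of their stock. The other differences of crq and pes did not.

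emp stood at 6.41 on the control array, 6.32 on spen, 5.32 on E(spl), 5.41 on Su(H) and 5.11 on EGFR. The levels on the 3 Bloomington stocks lay within 0.30 log2 units of each other and 0.91 below the lower of control and spen, and 0.698% of measured probe sets had a gap at least that large. emp was on in control, spen and Su(H), and lay between the background and that limit in E(spl) and EGFR. Its differences from the control were −0.09 in spen, −1.09 in E(spl), −1.30 in EGFR and −1.0003 in Su(H), the last of which lay just inside the 2-fold threshold. With each array shifted to a common median the Su(H) difference was −0.97, and with renewed quantile normalisation those of E(spl) and Su(H) were −0.64 and −0.69, under 2-fold. Of the members, pes in E(spl) at 0.91 came closest to the threshold from outside.

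ninaD stood at 3.51 on the control array, 3.55 on spen, 12.06 on E(spl), 5.54 on Su(H) and 3.86 on EGFR. It was off on the control, spen and EGFR arrays, lay 1.26 log2 units above the highest Bacillus control on Su(H), and lay 7.72 above it on E(spl). The E(spl) level was 91.6-fold above that of Su(H), at least 154-fold above spen and at least 201-fold above EGFR, where a lower bound is taken against the highest Bacillus control of the dim array. The Su(H) level was at least 2.31-fold above the control, at least 1.69-fold above spen and at least 2.20-fold above EGFR. The gap of 6.52 log2 units between the E(spl) array and the next highest array, Su(H), ranked 1 among the 18769 measured probe sets, a description since such values chose the gene, and the next largest such gap was 4.40, for Ret, a receptor tyrosine kinase gene.

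santa-maria had another pattern. It stood at 10.81 on the control array, 12.30 on spen, 5.13 on E(spl), 5.38 on Su(H) and 5.57 on EGFR. The last 3 levels differed by at most 0.44 log2 units and lay 0.79 to 1.16 above the highest Bacillus control. By the rule above, santa-maria was on in Su(H) and EGFR, and in E(spl) lay between the background and the limit for on. Relative to spen, the level was 144-fold lower in E(spl), 121-fold lower in Su(H) and 106-fold lower in EGFR. The spen level was also 2.80-fold above the control (difference 1.49), which made spen the highest of the 5 arrays. The range of santa-maria was 7.17 log2 units. Its gap of 5.24 between the control and the highest of the 3 Bloomington stocks ranked 2 for that separation, where 112 probe sets (0.597%) were lower by at least 2-fold than both control and spen in all 3 stocks. The 3 stocks share a stock centre, so mutation, source and genetic background cannot be told apart in this separation.

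Snmp1 was at or below the background on every array. Its levels were 3.70 on the control array, 4.26 on spen, 4.11 on E(spl), 4.23 on Su(H) and 3.94 on EGFR, and its differences from the control, 0.23 to 0.55, lie within the background and are not read as changes in expression. The order of the ninaD levels on control, spen and EGFR, 0.34 log2 units apart at most, is likewise an order of background values.

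Counted by stock against the control, a receptor was called when its difference was at least 1 log2 unit in size and its level reached 4.50, the median over all probe sets and arrays, on the stock's array or the control's. In spen, 4 of the 6 receptors passed the level filter, 1 was higher (santa-maria) and none was lower, where 3.05% of all passing probe sets were higher and 13.6% lower. In E(spl), 5 passed, 1 was higher (ninaD) and 2 were lower (emp and santa-maria), against 6.88% higher and 14.2% lower over all. In Su(H), 5 passed, and the same receptors were called in the same directions as in E(spl), against 7.49% higher and 13.8% lower. In EGFR, 4 passed, none was higher and 2 were lower (emp and santa-maria), against 4.89% higher and 10% lower. These calls include the values by which the family was chosen, and nothing is read from the counts. The median difference over all 6 receptors, values at background included, was 0.13 in spen, 0.01 in E(spl), −0.17 in EGFR and −0.09 in Su(H), beside 0.09, 0.07, 0.05 and 0.05 over all 18769 measured probe sets, likewise unfiltered.

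With the spen array as the reference in place of the control, E(spl) had 1 receptor higher (ninaD) and 1 lower (santa-maria), against 10.2% and 7.47% of all passing probe sets. Su(H) had santa-maria lower and, by its measured value, ninaD higher, against 10.1% and 7.49%, but spen was at background for ninaD and the bound of 1.69-fold does not reach the threshold. EGFR had none higher and 2 lower (emp and santa-maria), against 12% and 7.38%. emp at −0.997 in E(spl) and −0.91 in Su(H) fell just outside the threshold against spen. The comparisons within each reference share that reference array and are not independent of each other.

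**Figure D2:**
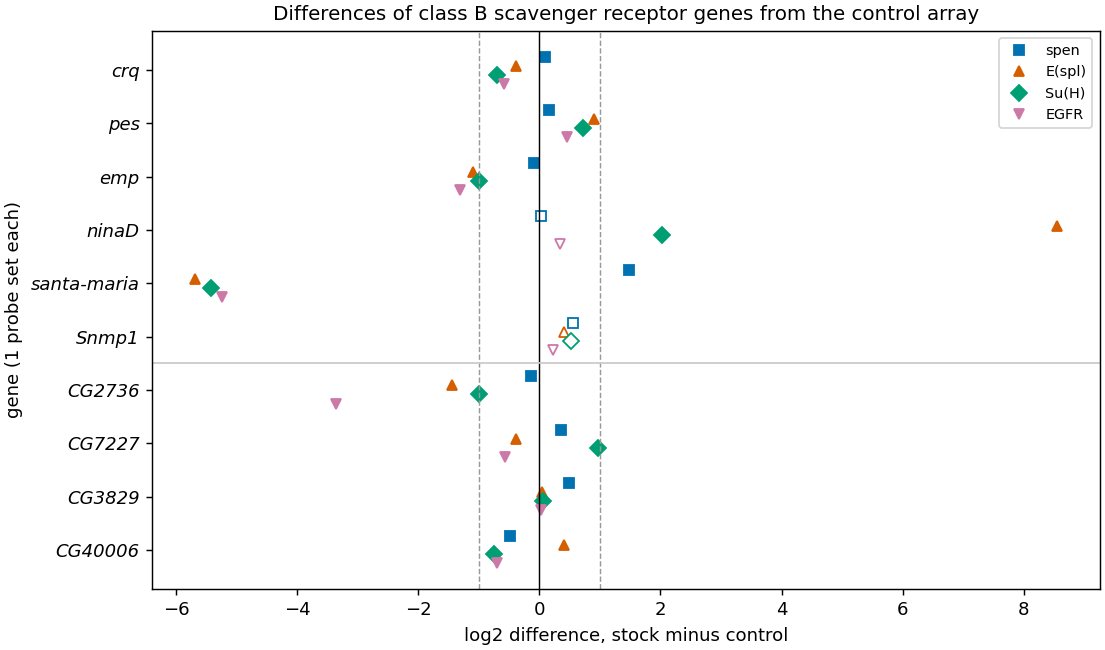
Log2 difference of each stock from the control array (horizontal axis) for the 6 receptors (above the grey line) and for the other class B scavenger receptor probe sets that reached the median level (below it), 1 symbol per stock, with dashed lines at 2-fold. Open symbols mark genes off on both arrays, and ninaD in E(spl) (8.54) and santa-maria in E(spl), Su(H) and EGFR (−5.68, −5.43 and −5.24) stand far outside the dashed lines. The filled ninaD symbols and those of CG2736 and CG7227 in EGFR involve an array on which the gene was off, so they are measured values that the text gives as bounds or levels.

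The fly has further class B scavenger receptor genes, of which 8 were listed and 7 were named on the array by 9 probe sets. dsb is not analysed here. Snmp2, CG10345 and CG31741 were off on all 5 arrays at every probe set, as was 1 of 2 CG3829 probe sets. The other CG3829 probe set stood between 8.46 and 8.95 and was on in all stocks, and CG40006 was on in all stocks between 9.10 and 10.25. CG7227 lay between 4.32 and 5.86, with Su(H) highest, and was on in Su(H) alone and off in EGFR. CG2736 had the widest range of these genes, with 7.15 on the control array, 7.01 on spen, 5.71 on E(spl), 6.16 on Su(H) and 3.79 on EGFR. It was off in EGFR, where the control level was at least 6.72-fold above the background of the array. The other differences from the control were −0.15 in spen, −0.99 in Su(H) and −1.45 in E(spl). Of the 4 of these probe sets that passed the level filter in each stock, CG2736 alone was called, lower in E(spl) and EGFR. Over all passing probe sets 14.2% were lower in E(spl) and 10% in EGFR, and nothing is read from this count.

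Several family members lie next to or near each other in the Release 6 gene table. Their differences from the control were alike for some pairs and stocks and unlike for others. ninaD is followed directly by CG31741, another family gene, which stood between 3.16 and 3.33 on all arrays, E(spl) included. pes is followed directly by CG7227, which in E(spl) differed from the control by −0.38 while pes differed by 0.91. That E(spl) level of CG7227 lay only 0.18 log2 units above the highest Bacillus control, and in EGFR CG7227 was off. In spen and Su(H) both genes were above the control, CG7227 by 0.36 and 0.97 and pes by 0.16 and 0.72. emp lies 2 genes after CG2736 and directly before CG3829. In the 3 Bloomington stocks emp and CG2736 were both below the control, while CG3829, at its measured probe set, differed by 0.02 to 0.06.

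Of the 3 nearest measured genes on each side of santa-maria on chromosome arm 2L, muc, CG5958 and CG5973 lie before it and Gr28a, Gr28b (gustatory receptor genes) and CG6055 lie after it. muc, CG5958 and CG5973 were on in all stocks at 10.43 to 11.43, with ranges of at most 0.98 log2 units, and none of the 3 was called in any stock. Gr28a, Gr28b and CG6055 were off on all 5 arrays, so their values say nothing of a change. The neighbours of ninaD, also on 2L, were mostly dim, and of their 7 probe sets 3 reached the level filter. None of the 3 was higher in E(spl) than in the control. Arr1, a visual arrestin gene directly before ninaD, was at 4.47 on the control array and off on the others. Slc25A46b, a gene of the mitochondrial carrier family, stood at 7.49 on the control array, 6.09 on EGFR and 4.93 on Su(H), and was off on spen and E(spl). elfless was near the background throughout, at 4.99 on the control array and 5.08 on EGFR, and was off on the other 3. By the rule for calls, both Slc25A46b and elfless were lower than the control in spen, E(spl) and Su(H), and Slc25A46b also in EGFR.

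**Figure D3:**
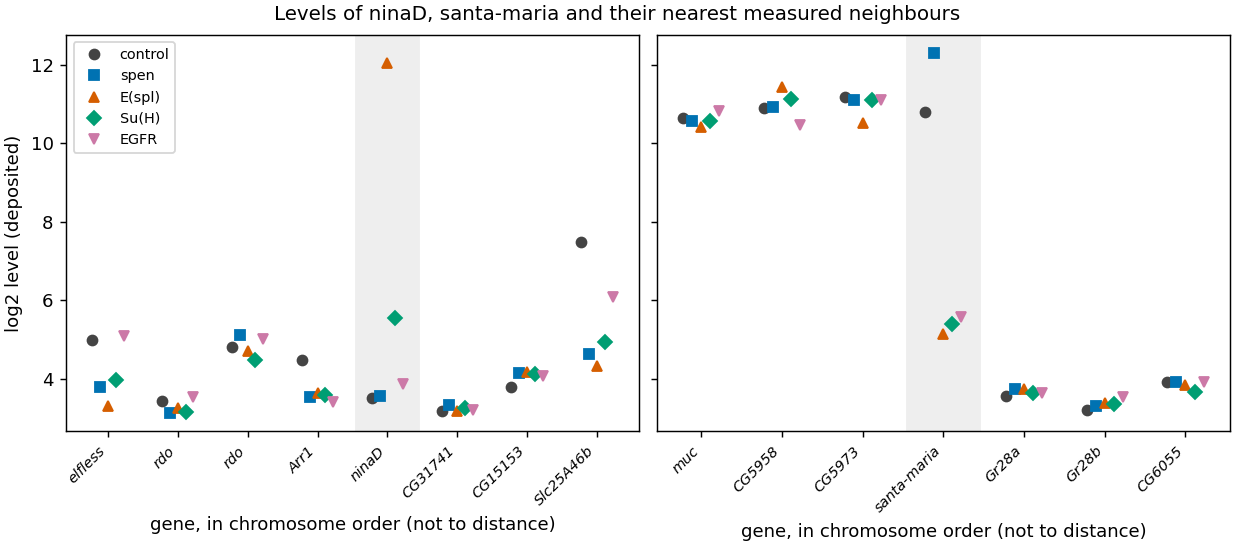
Log2 level on the 5 arrays (vertical axis) for ninaD (left, shaded) and santa-maria (right, shaded) and for the probe sets of their 3 nearest measured genes on each side in chromosome order (horizontal axis, without distances). CG31741, directly after ninaD, stays between 3.16 and 3.33, and of the 6 neighbours of santa-maria the 3 before it range by at most 0.98 log2 units while the 3 after it are at background.

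The genes whose 5-array profiles were most like those of ninaD and santa-maria were found by the root-mean-square distance between profiles centred on their own means. For ninaD, the 5 nearest were Scp2, a calcium-binding protein gene (distance 1.47 log2 units), Ret (1.51), Ugt37A3, a glucuronosyltransferase family gene (1.53), Ttc26 (1.66) and CG31248 (1.68). All 5 were highest in E(spl), between 8.05 and 9.47, and none matched the size of the ninaD difference. Scp2 and CG31248 were also raised in Su(H), at 6.56 and 5.82, as ninaD was, while Ttc26 stood at 3.83 there. Scp2 was on in EGFR too, at 5.46, where ninaD was off. For santa-maria the nearest were closer. CAH7, a carbonic anhydrase gene, had a distance of 0.60, with 11.31 on the control array, 12.31 on spen, and 5.07, 5.98 and 4.48 on E(spl), Su(H) and EGFR. Pgant8, a glycosyltransferase gene (0.90), CG5568 (0.95), CG30098 (0.99) and dmGlut, a glutamate transporter gene (1.00), followed. Of these 5, CG30098 alone was lower in spen than in the control. Likeness over 5 arrays, 1 per stock, is a description, and other genes would be named by correlation.

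**Figure D4:**
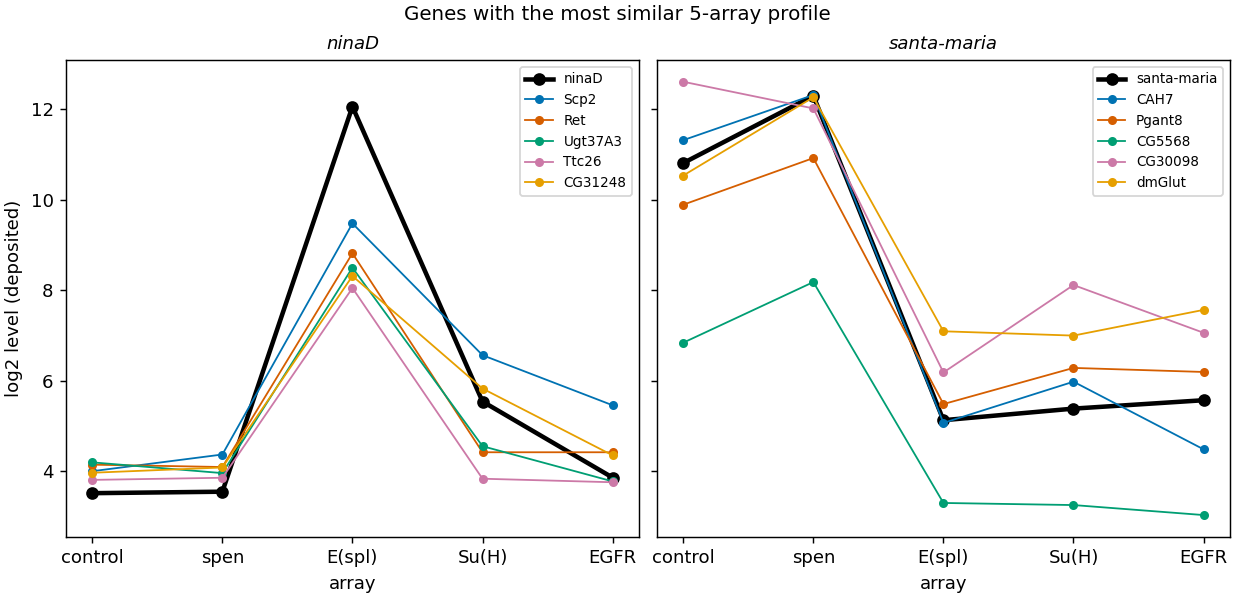
Log2 level (vertical axis) on the 5 arrays (horizontal axis) for ninaD (left, black) and santa-maria (right, black) and for the 5 genes with the most similar centred profile. Lines only join the values of a gene, and the arrays have no order. All 5 genes beside ninaD peak in E(spl) between 8.05 and 9.47, and CAH7 follows santa-maria with a distance of 0.60 log2 units.

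Genes of the processes in which these receptors act were read from lists, with members counted as for the receptors. Over all named genes, 218 were higher and 1181 lower of 8079 in spen, 524 and 1242 of 8076 in E(spl), 568 and 1215 of 8139 in Su(H), and 350 and 842 of 8017 in EGFR, and the medians over all genes were 0.02 to 0.06. The carotenoid and visual pigment list had 5 of 13 genes named on the array. None was called in any stock, and its medians were −0.04 to 0.06. ninaB, the oxygenase that acts after ninaD and santa-maria, was off on all 5 arrays (4.03 to 4.13), as were rdhB and Pdh, both retinoid dehydrogenase genes. pinta, a retinoid-binding protein gene, was the only listed gene above the filter, with 7.90 on the control array, 8.12 on spen, 8.59 on E(spl), 6.97 on Su(H) and 7.62 on EGFR. Its differences from the control were all under 2-fold, and E(spl) and Su(H), the stocks with ninaD on, were its highest and its lowest array.

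The apoptotic cell uptake list, in which crq acts, had 10 of 16 genes named and all 10 passed the filter. In spen, 1 was higher and none lower, with a median of 0.06, and the higher gene was NimC4, a receptor for dying cells, at 8.74 against 5.20. In E(spl), 1 was higher and none lower, with a median of −0.25. In Su(H) and in EGFR, 1 was higher and 1 lower, with medians of −0.05 and −0.08. The higher gene in these 3 stocks was Itgbn, an integrin beta subunit, at 7.08 on the control array, 9.35 on E(spl), 10.85 on Su(H) and 8.54 on EGFR. The lower gene was scb, an integrin alpha subunit, which differed by −1.81 in Su(H), −1.73 in EGFR and −0.99 in E(spl). drpr (draper), another engulfment receptor, stood between 12.43 and 12.97 on all arrays.

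The bacterial uptake list, the process in which pes acts, had 15 of 19 genes named, with 12 or 13 passing the filter. It had 1 higher and 1 lower gene in spen, 2 and 2 in E(spl), none and 2 in EGFR, and 1 and 2 in Su(H), with medians of −0.01, 0.10, 0.05 and 0.14. NimC2, a Nimrod receptor gene, stood at 8.10 in control, 10.48 in spen, 5.40 in EGFR and 6.07 in Su(H), was off in E(spl), and was called in all 4 stocks, higher in spen and lower in the others. The class C scavenger receptor genes Sr-CIII and Sr-CIV were the higher ones in E(spl), by 3.53 and 2.32 log2 units. The lipid uptake list had 16 of 17 genes named and 15 passing, with no gene called in spen and medians of −0.06 in spen, 0.29 in E(spl), −0.23 in EGFR and −0.13 in Su(H). It had none higher and 1 lower (apolpp, the main lipoprotein gene, −1.27) in E(spl), 1 higher (FASN1, fatty acid synthase, 2.01) and 1 lower (Npc2a, a sterol-binding protein gene, −1.09) in Su(H), and 2 of each in EGFR, with Apoltp, a lipid transfer particle gene, at 1.98 and apolpp at −2.72. The pheromone and odour list, in which Snmp1 acts, had 8 of 9 genes named, with 2 or 3 passing the filter and medians of −0.04, 0.10, 0.04 and 0.01 in the same order. Its only call was lush, an odorant-binding protein gene, lower by 1.84 in EGFR, and Orco and Or67d, receptor genes of odour neurons, were off on all arrays, like Snmp1.

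Markers of blood cells and of other tissues were read beside these results. Hemocyte genes were high on every array, with Hml at 13.68 to 14.38, and none of 9 plasmatocyte markers (crq left out) was called in any stock. Summed on the linear scale, the plasmatocyte markers had a log2 level of 16.29 in control and 15.93 in spen, and 16.40, 16.56 and 16.48 in E(spl), EGFR and Su(H). The 6 lamellocyte markers, none of them off on any array, had summed levels of 12.61 in control and 12.58 in spen, and 13.01, 13.10 and 13.49 in E(spl), EGFR and Su(H), so their sum separated the same arrays as santa-maria, emp, crq and pes. PPO3 alone of the 6 did not, with Su(H) at 8.89 and spen at 8.97. None of the 6 lamellocyte markers was called in spen, 3 were higher in E(spl), 2 in EGFR and 3 in Su(H), and none was lower. The sums of the plasmatocyte markers, and of the muscle and crystal cell markers given below, separated the same arrays too. Not all members of these lists did so. The plasmatocyte markers eater, He, vkg and srp, the muscle marker Mlc2 and the crystal cell marker CG17109 did not. The muscle marker sls separated them the opposite way, at levels near the background. The mean of a measure of RNA quality split the arrays as these sums did. The 3′ over middle difference of the actin, eIF-4a and GAPDH control probe sets averaged 1.53 in control and 1.69 in spen against 2.10, 1.84 and 2.51 in E(spl), EGFR and Su(H). eIF-4a alone did not split them, with EGFR at 1.69 and spen at 1.88. GAPDH split them narrowly, with control at 2.20 and E(spl) at 2.22. The part of these cell types and tissues, or of RNA quality, in the differences of these receptors was not tested.

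Tissues in which ninaD and santa-maria are known to act were measured as well. The 8 named midgut markers had summed levels of 8.75 in control, 7.96 in spen, 8.66 in E(spl), 7.89 in EGFR and 11.54 in Su(H). None was higher by 2-fold in E(spl), the stock with high ninaD, and 3 were in Su(H). In E(spl), Jon99Fi and Jon66Ci came closest, at 0.91 and 0.90, and both were higher in Su(H), by 6.45 and 2.53. In each of these 2 stocks 1 was lower, thetaTry, which differed by −2.01 in E(spl) and −1.78 in Su(H). thetaTry was lower in spen and EGFR as well, at −2.30 and −2.27, where ninaD was off. The part of midgut RNA in the Su(H) level of ninaD was not tested. Muscle markers, 5 of which were named, had summed levels of 11.40 in E(spl) and 11.68 in Su(H), the 2 stocks with ninaD on, against 8.18 in control, 8.01 in spen and 9.13 in EGFR, and the part of muscle RNA in the ninaD levels was not tested. Of 8 nervous system markers, 6 were off on all arrays, among them repo, the glial marker, and nSyb. The exceptions were nrv2, at 10.30 to 10.70, and elav, at 6.63 to 7.16, and neither was called in any stock. nrv2 split the arrays as santa-maria did, at 10.53 in control and 10.70 in spen against 10.30 to 10.34 in the others. elav did not split them. The part of nervous system RNA in the santa-maria levels was not tested. Of 6 eye markers, 4 were off on all arrays, and the list had no call. Of 3 olfactory markers, Orco and Obp83b were off, and lush is given above. The 5 fat body markers named had summed levels of 14.09 in control, 13.25 in spen, 13.34 in E(spl), 12.52 in EGFR and 13.98 in Su(H). Fbp1, a storage protein receptor gene, stood at 10.96 and 10.56 in control and spen and at 6.04, 7.44 and 6.59 in the others, the split of santa-maria. FASN1 split the arrays the opposite way, at 10.40 in control and 9.89 in spen against 11.29 in E(spl), 11.65 in EGFR and 12.41 in Su(H). Fbp2 and apolpp did not split them, and Lsp2 stood at 11.46 in both spen and Su(H). The part of fat body RNA in the santa-maria differences was not tested. The 6 salivary gland markers had a summed level of 14.09 in spen against 9.57 in control and 7.64 to 9.59 in the other stocks, beside the 2.80-fold higher santa-maria of spen, and the part of salivary RNA in that difference was not tested. The 5 crystal cell markers had summed levels of 15.50 in control and 14.68 in spen, and 15.68 to 15.79 in the other 3 stocks. Of them, 2 were higher in each of those 3 stocks, the transcription factor genes lz and peb, and CG17109 was lower in spen and EGFR. lz was off on control and spen and stood at 6.90 in E(spl), 7.43 in EGFR and 5.72 in Su(H), and peb stood at 6.59 in control and 5.78 in spen against 8.69, 8.43 and 8.53, so both split the arrays as santa-maria and emp did. The part of crystal cell RNA in those differences was not tested.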

How the data were processed

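The authors deposited 1 table of log2 levels for 18952 probe sets on 5 Affymetrix arrays, read here as RMA log2 values because they ran from 2.54 to 14.74 with near-equal medians (4.45 to 4.52). Per the submitters' processing notes, RMA and GCOS were used, with roles, versions and settings not given in the sources used here. Per the labels' protocols, RNA was amplified before labelling, which favours 3′ ends. RMA fits arrays together and can remove a shift common to most genes.

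The 183 control probe sets were set aside, 27 of them for Bacillus genes. Names came from the platform annotation (13647 probe sets with 1 gene, 402 with several, 4720 with none). Of the named probe sets, 13544 matched the Release 6 gene table by gene identifier, with no symbol differing. Neighbours came from that table, without coordinates. By their suffixes, the crq, pes and emp probe sets are of a kind whose probes can match transcripts of several genes, and that of santa-maria is of a kind that matches several transcripts of 1 gene. Calls used measured differences, also where 1 of both arrays was at background. Array precision is limited by 1 array per group, so log2 differences were taken without a test. Members and gene lists were chosen with earlier results of these data known. The 6 members, the other family genes, the 5 most similar genes for members ranging by at least 2 log2 units, 3 neighbours on each side of those, and up to 3 list members per stock were named. List members read for a split of the arrays were named as well. No sequences are shown. Calculations used Python 3.11.15, pandas 2.3.3 and NumPy 2.4.6, and the call rule was tested on simulated data.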

Additional observations from a re-analysis of the deposited data

How the results depend on the processing

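All 24 member differences kept within the probe set SD of their stock under a common median and under renewed quantile normalisation, as did the 60 list medians under the latter. Subtracting the median Bacillus control moved 5 of the 24, with ninaD at 10.79 in E(spl) and 3.96 in Su(H). With the mean of the other 3 mutant arrays as the reference, 14 moved and 1 reversed: ninaD in Su(H) became −0.95, since that mean holds the E(spl) array. ninaD in E(spl) was then at 7.74, santa-maria at 6.94 in spen, −2.62 in E(spl), −2.03 in EGFR and −2.28 in Su(H), and emp at −0.29, −0.57 and −0.17 in E(spl), EGFR and Su(H). This reference moved 17 of 60 list medians, all of cell type markers. At 3-fold the called members fell to 0 in spen and 1 in EGFR, and to 2 each in E(spl) and Su(H), where emp was lost. Renewed quantile normalisation also left 2 in E(spl) and 2 in Su(H). With the median Bacillus control plus 2 log2 units as background, ninaD was on in E(spl) alone and santa-maria on 2 arrays. By Pearson correlation, none of the 5 genes nearest to ninaD or to santa-maria was shared. No gene had several probe sets among the members, so averaging probe sets changed nothing. No paired analysis was possible because each group had 1 array.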
